A study of Mus musculus with 12 samples.

Results

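The epicardium is the single-layered mesothelium that covers the heart. It forms from the proepicardium, spreads over the ventricles before midgestation, and sends signals such as retinoic acid and fibroblast growth factors to the myocardium beneath it. Some of its cells undergo epithelial-mesenchymal transition and enter the heart wall, where they give rise to fibroblasts and mural cells of the coronary vessels. The genes described here are 9 markers of this layer, Wt1, Tcf21, Bnc1, Upk3b, Upk1b, Krt19, Lrrn4, Msln and Dmkn, chosen by gene symbol from 40800 genes in the count table, 1 row for each Ensembl gene.

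Their RNA was counted by bulk RNA sequencing of mouse heart ventricles at embryonic day 12.5, in 6 libraries with Wnt gain of function and 6 control libraries. The labels give the 2 groups only as wnt gof and control. No allele, Cre driver, strain or sex is stated, and it is not stated which ventricle was taken or how many embryos went into 1 library, so each p-value rests on the spread from library to library, which may be technical. In whole ventricles, a smaller number of epicardial cells and a lower amount of a transcript per epicardial cell cannot be told apart.

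Library totals ran from 12127026 to 17184662 counts with Wnt gain of function and from 10130088 to 17526325 counts in control. Axin2, a feedback inhibitor and standard readout of canonical Wnt signalling, was at 3.77 to 26.0 CPM (CPM being the count scaled by the TMM-adjusted library size) with Wnt gain of function and at 1.39 to 4.13 CPM in control. Wnt gain-of-function library 5 was the lowest of its group, at 3.77 CPM, and lay within the control range. The summed CPM of 8 Wnt target genes was 131.4 in that library and 256.1 to 285.7 in the rest of its group. In control the sum was 93.9 to 162.1 CPM. Why library 5 lay so low was not tested. The gene-level count of Ctnnb1, which encodes beta-catenin, was 288.2 ± 26.9 CPM with Wnt gain of function and 278.6 ± 15.5 CPM in control (SD, n = 6), and such a count cannot show a change of single exons. Apart from the genotype, the libraries were clustered by the deviations of all tested genes but the markers from their group means. The number of sets was fixed at 3. Set A holds Wnt gain-of-function libraries 1 and 2 and control libraries 2 and 3, set B holds Wnt gain-of-function 3 and 4 and control 4 and 5, and set C holds Wnt gain-of-function 5 and 6 and control 1 and 6. Set A stood farthest apart: its deviations correlated at 0.46 to 0.60 within the set and at -0.60 to -0.087 with the other 8 libraries (Pearson's r across genes). Within set B r was 0.36 to 0.49. Within set C it was only -0.076 to 0.13, and Wnt gain-of-function library 5 was closer to control library 4 of set B (0.17). Set C is therefore not a close group. The labels name no batch, and the sets were found in these same libraries.

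Promoter sequence was available from RefSeq for 5 of the 9 markers. The 4 windows below are the 250 bases before the start of Upk3b, Lrrn4, Bnc1 and Tcf21. The first 3 varied together over the 12 libraries, though outside set A Bnc1 had r of 0.011 with Upk3b and 0.31 with Lrrn4. Tcf21 did not vary with these 3 when the groups were pooled. Each is in build GRCm38.p6 and written 5′ to 3′ on the strand of its gene, with capitals for a match to the core motif of TEAD factors, GGAATG, on either strand.
Upk3b, chr5:136038246-136038495, plus strand: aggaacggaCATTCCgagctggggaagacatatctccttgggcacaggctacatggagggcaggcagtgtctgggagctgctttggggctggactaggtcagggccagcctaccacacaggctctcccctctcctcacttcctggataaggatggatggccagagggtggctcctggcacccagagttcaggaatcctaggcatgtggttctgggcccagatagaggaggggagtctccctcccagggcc
Lrrn4, chr2:132880863-132881112, minus strand: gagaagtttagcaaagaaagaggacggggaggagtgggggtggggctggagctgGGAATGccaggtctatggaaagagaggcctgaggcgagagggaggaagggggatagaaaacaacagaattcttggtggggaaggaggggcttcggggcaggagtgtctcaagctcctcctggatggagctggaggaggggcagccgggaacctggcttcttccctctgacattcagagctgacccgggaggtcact
Bnc1, chr7:81992300-81992549, minus strand: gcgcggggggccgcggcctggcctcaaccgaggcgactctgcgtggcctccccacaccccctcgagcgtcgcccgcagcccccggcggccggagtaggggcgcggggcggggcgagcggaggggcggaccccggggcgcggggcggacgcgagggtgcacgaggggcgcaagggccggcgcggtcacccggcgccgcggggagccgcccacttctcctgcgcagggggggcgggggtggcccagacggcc
Tcf21, chr10:22820144-22820393, minus strand: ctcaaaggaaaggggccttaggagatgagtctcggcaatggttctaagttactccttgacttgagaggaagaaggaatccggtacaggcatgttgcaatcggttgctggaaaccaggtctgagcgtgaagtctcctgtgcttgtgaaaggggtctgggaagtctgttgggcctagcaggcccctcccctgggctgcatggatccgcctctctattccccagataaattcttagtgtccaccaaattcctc
Upk3b and Lrrn4 each held 1 TEAD core, which 12.6% of 32851 RefSeq promoter windows of this length hold. None of the 4 windows held the TCF/LEF core CTTTGAT (3.21% of windows), the WT1/EGR-type GCGTGGGNG (1.65%) or the E-box CAGCTG that TCF21 can bind (13.0%), which says only that these letters are not in these windows. GC content was 60.8% for Upk3b, 59.2% for Lrrn4, 83.6% for Bnc1 and 52.4% for Tcf21.

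All markers but Dmkn were well measured, from 65 counts of Bnc1 in control library 2 to 1381 counts of Upk3b in control library 6. The keratin Krt19 was the highest per length, with a median of 37.8 RPKM (CPM per kilobase of exon, GENCODE M21 lengths) over the 12 libraries. Tcf21 at 19.7 RPKM, Upk3b at 19.4 and Upk1b at 17.4 followed, and their ranges overlapped. The ranges of Msln at 6.01 RPKM and Wt1 at 5.26 overlapped too, and the highest Msln library, at 12.05 RPKM, passed the lowest Upk1b library, at 11.4. Lrrn4 at 2.73 RPKM and Bnc1 at 2.00 overlapped each other and lay below Wt1 in each library. Dmkn was near the limit of detection, at 0.189 RPKM, with 1 to 11 counts per library. Krt19 did not overlap Tcf21 in range, though its lowest library, at 26.6 RPKM, lay just under the highest of Upk3b, at 26.7 RPKM. Wt1 did not overlap Lrrn4, and Bnc1 did not overlap Dmkn.

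**Figure D1:**
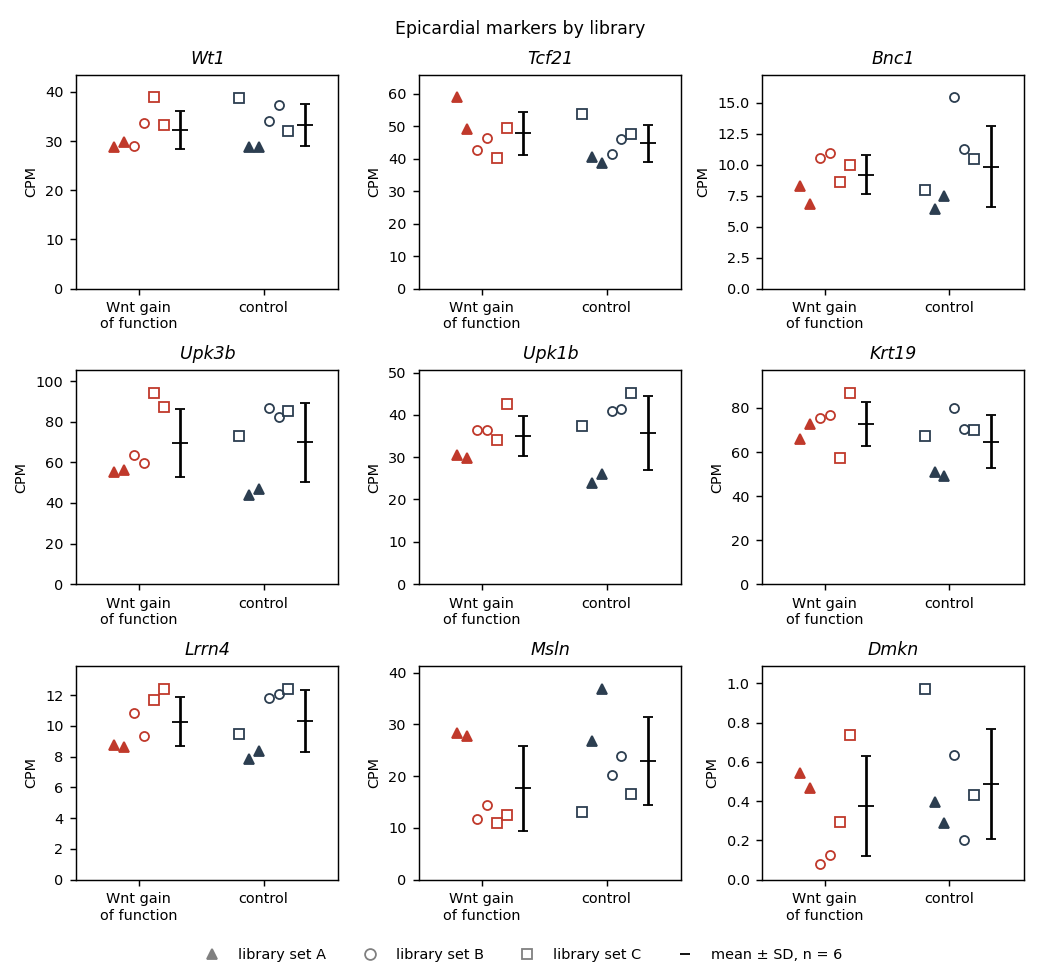
CPM of each marker (vertical axis, from 0) in the 6 Wnt gain-of-function libraries (left) and the 6 control libraries (right) of each panel, with the mean ± SD beside the points and 1 symbol for each library set. The groups overlap in all 9 panels, and the filled triangles of set A are low for Upk3b, Upk1b and Lrrn4 and high for Msln.

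None of the 9 epicardial markers passed the test for a difference between Wnt gain-of-function and control ventricles. Of the 8 markers that passed the low-count filter, edgeR's quasi-likelihood test (adjusted p below 0.05) called 0 higher, against 0.433% of the 14774 genes tested, and 0 lower, against 0.0677%, or 0.501% in either direction. The same 0 of 8 came from DESeq2, which called 0.834% of its genes higher and 0.123% lower, and from limma-voom, which called 0.0203% in each direction. The count was also 0 with the replicate numbers as a block (0.318% of genes higher, 0.0541% lower) and with DESeq2 size factors (0.44% and 0.0677%) or library size alone (0.433% and 0.0677%). It was 0 as well without a count filter (0.35% and 0.0433%), under a stricter one (0.396% and 0.0708%), with the closest library pairs summed (0% and 0.00662%) and without set A (0% and 0.0135%). Unadjusted p-values below 0.05 belonged to 0 of 8 markers, against 6.3% of all tested genes, and 0 of 9 markers had groups that did not overlap, against 0.46% of tested genes. The median log2 fold change of the 8 markers was -0.022, beside 0.0013 over all tested genes, with 2 markers above 0 and 6 below.

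Among the transcription factors, Wt1, the zinc-finger factor needed to form the epicardium and for its mesenchymal transition, had its lowest, median and highest library at 28.8, 31.6 and 38.9 CPM with Wnt gain of function and at 28.7, 32.99 and 38.7 CPM in control. The 2 ranges all but coincided. Its log2 fold change was -0.042 ± 0.10 (SE), with a 95% interval of -0.26 to 0.17 (edgeR adjusted p = 0.999). Wt1os, the antisense gene beside Wt1, was at 2.59 ± 0.608 CPM with Wnt gain of function and 2.27 ± 0.749 CPM in control (SD, n = 6). The strand setting of the counting is not given in the sources used here, but in GENCODE M21 the exons of Wt1 share no base with another gene.

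Tcf21, a basic helix-loop-helix factor of the epicardium and of cardiac fibroblast progenitors, was at 40.1, 47.7 and 58.8 CPM with Wnt gain of function and at 38.7, 43.8 and 53.6 CPM in control (lowest, median and highest). Wnt gain-of-function library 1 was the highest of all 12 and control library 3 the lowest. The log2 fold change was 0.097 ± 0.10, with an interval of -0.12 to 0.31, and without the 4 libraries of set A it was -0.075. Bnc1, the zinc-finger protein basonuclin 1, was at 6.80, 9.28 and 10.96 CPM with Wnt gain of function and at 6.45, 9.21 and 15.4 CPM in control. Control library 4 alone was above all others. Bnc1 had a log2 fold change of -0.10 ± 0.19 and an interval of -0.51 to 0.31, and without control library 4 it was 0.072. In GENCODE M21, 98 exon bases of Bnc1 overlap a pseudogene on the opposite strand.

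The surface and cytoskeletal markers showed no group difference past the test either. Upk3b, a uroplakin of the urothelium that also marks mesothelium, was at 55.5, 61.8 and 94.2 CPM with Wnt gain of function and at 43.9, 77.8 and 87.0 CPM in control. Its log2 fold change was -0.0078 ± 0.20, with an interval of -0.43 to 0.42. The tetraspanin Upk1b, another uroplakin, was at 29.9, 35.1 and 42.6 CPM with Wnt gain of function and at 23.8, 39.1 and 45.2 CPM in control. Both uroplakins spread more between libraries than Wt1, and the low end of each group was held by libraries of set A. Upk1b had a log2 fold change of -0.034 ± 0.15, with an interval of -0.35 to 0.28. Lrrn4, a leucine-rich repeat membrane protein, was at 8.62, 10.1 and 12.4 CPM with Wnt gain of function and at 7.83, 10.6 and 12.4 CPM in control, a log2 fold change of -0.0099 ± 0.15 with an interval of -0.32 to 0.30.

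Krt19, a keratin of simple epithelia and mesothelium, had the highest fold change of the 8. It was at 57.4, 74.1 and 86.8 CPM with Wnt gain of function and at 49.3, 68.5 and 79.9 CPM in control, and the ranges overlapped for most of their length. The log2 fold change was 0.17 ± 0.12, with an interval of -0.095 to 0.43 (edgeR adjusted p = 0.999). Dmkn, which encodes the secreted epidermal protein dermokine, was at 0.0822 to 0.738 CPM with Wnt gain of function and at 0.201 to 0.973 CPM in control. It did not pass the low-count filter. Fitted without that filter, its log2 fold change was -0.36 ± 0.49, with an interval of -1.35 to 0.64. At this depth any difference inside that interval remains compatible with the counts.

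Msln, which encodes the cell-surface protein mesothelin, had the lowest fold change of the 8 tested markers and, relative to its mean, the widest spread among them. It was at 11.03, 13.5 and 28.4 CPM with Wnt gain of function and at 13.1, 22.0 and 36.9 CPM in control. Its coefficient of variation was 46.4% with Wnt gain of function and 36.8% in control, against 11.97% with Wnt gain of function and 12.7% in control for Wt1. The log2 fold change was -0.38 ± 0.30, with an interval of -1.04 to 0.28 (edgeR adjusted p = 0.999). Without control library 3 it was -0.18, and without the 4 libraries of set A it was -0.56 ± 0.17 (edgeR adjusted p = 0.437).

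The intervals show how large a difference remains compatible with these libraries. For 6 of the 8 markers the whole 95% interval lay within 0.5 of 0 on the log2 scale, as it did for 64.1% of all tested genes. The exceptions were Bnc1, whose interval passed that limit slightly, and Msln. For Wt1 the interval corresponds to a level of 0.837 to 1.13 times that of control, for Upk3b to 0.74 to 1.34 times and for Msln to 0.488 to 1.22 times.

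**Figure D2:**
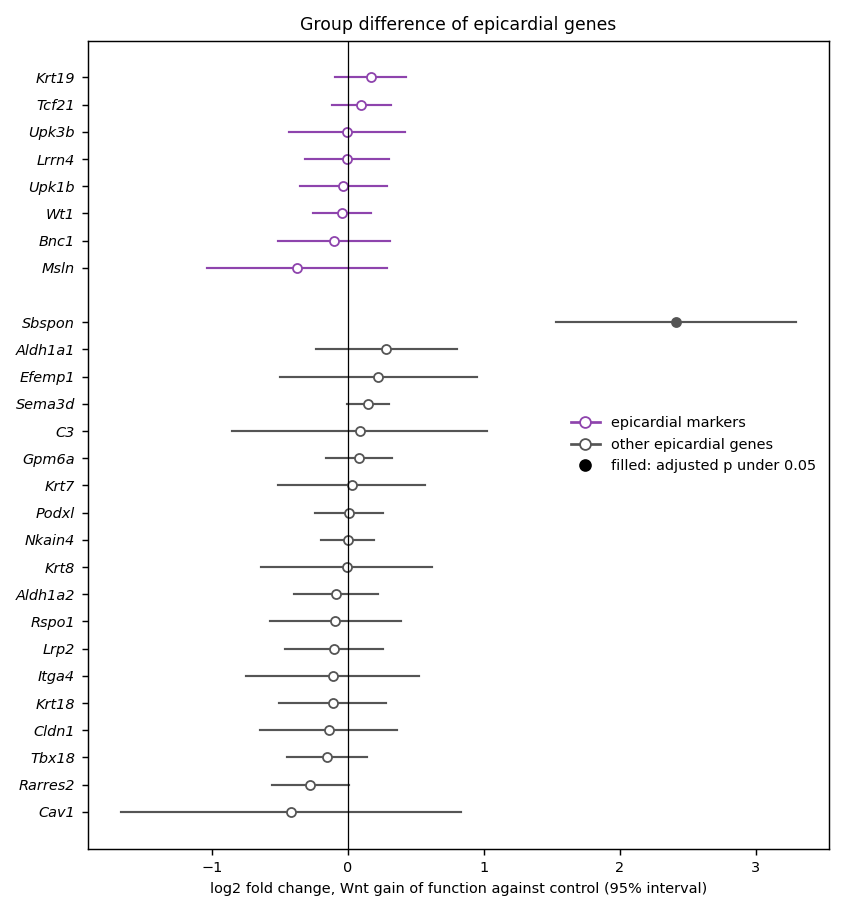
Log2 fold change of Wnt gain of function against control (horizontal axis) with its 95% interval for the 8 tested epicardial markers (top) and 19 further tested epicardial and mesothelial genes (bottom), ordered by fold change. The intervals of all 8 markers cross 0, and Sbspon, at 2.41, is the filled point.

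For each of the 9 markers the difference between the group means was smaller than the SD of either group, and the markers did not all spread alike. After the group means were removed, Upk3b, Upk1b, Lrrn4, Krt19 and Bnc1 moved together, with Pearson's r of 0.58 to 0.93 in their 10 pairs over the 12 libraries. The closest pair was Upk3b with Lrrn4, at 0.93, followed by Upk1b with Lrrn4 at 0.89. Wt1 followed Upk3b (r = 0.76) but was further from Krt19 (0.30). Tcf21 lay apart when the groups were pooled, with r from -0.065 to 0.38 with the other 7 markers. These correlations describe 12 libraries of 1 tissue that fall into the 3 sets. Over the 8 libraries outside set A the same 10 pairs ran from -0.082 to 0.79, with Upk3b and Lrrn4 still at 0.79, so part of the joint movement rests on the 4 libraries of set A. In the 6 control libraries alone the 10 pairs ran from 0.79 to 0.99. In the 6 Wnt gain-of-function libraries they ran from -0.14 (Upk3b with Krt19) to 0.91. For Tcf21 most signs differed between the groups. Its r with Wt1 was -0.62 with Wnt gain of function and 0.81 in control. With Upk3b it was -0.56 and 0.59, with Msln 0.80 and -0.89, and with Krt19 0.21 and 0.52. Each of these r rests on 6 libraries, 2 of them from set A. In set A, Tcf21 was at 58.8 and 49.2 CPM with Wnt gain of function and at 40.4 and 38.7 CPM in control. Over the 8 libraries outside set A, with the groups pooled, Tcf21 had r of 0.14 with Wt1 and -0.067 with Upk3b. With Msln it was -0.13 and with Krt19 0.43. Whether the groups differ in these r was not tested.

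Msln ran against the others. Its r with Wt1, Upk3b, Upk1b, Lrrn4, Krt19 and Bnc1 lay between -0.69 and -0.40, and with Tcf21 it was 0.066. In set A, Msln was at 28.4 and 27.8 CPM in the Wnt gain-of-function libraries and at 26.8 and 36.9 CPM in the control libraries, while the other 8 libraries reached at most 23.9 CPM. Upk3b in the same 4 libraries was at 55.5 and 56.4 CPM with Wnt gain of function and at 43.9 and 47.1 CPM in control, and the other 8 had at least 59.8 CPM. The ratio of Msln to Upk3b counts, which does not depend on library scaling, was 0.493 to 0.784 in set A and 0.117 to 0.289 elsewhere. The opposition rests on those 4 libraries: without them r was 0.041 between Msln and Upk3b and 0.74 between Msln and Bnc1.

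**Figure D3:**
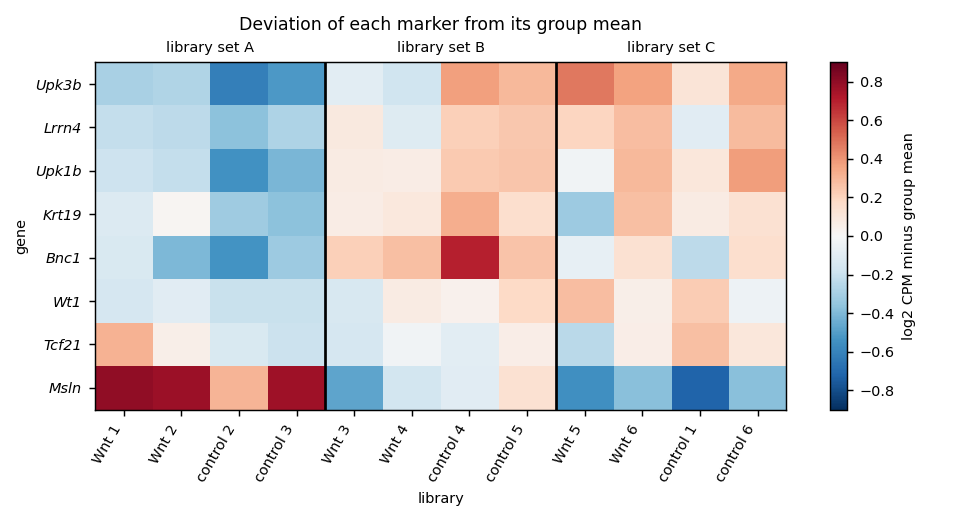
Deviation of 8 markers (rows) from their group mean in log2 CPM (colour) in the 12 libraries (columns), ordered by library set with Wnt gain of function before control in each. In set A, Upk3b, Lrrn4 and Upk1b are below their group means in all 4 libraries and Msln is above.

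**Figure D4:**
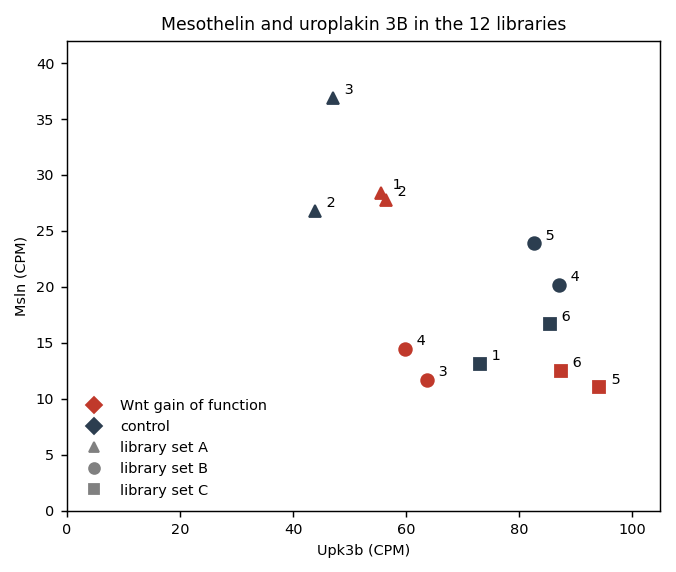
CPM of Msln (vertical axis) against CPM of Upk3b (horizontal axis) in each library, coloured by group, shaped by library set and numbered by replicate. The 4 triangles of set A lie at the upper left, with Msln at 26.8 CPM or more and Upk3b at 56.4 CPM or less.

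Set A separated from the other 8 libraries without overlap for 4 markers, below them for Upk3b, Upk1b and Lrrn4 and above them for Msln. Of all tested genes, 6.68% lay below and 6.29% above in this way, and since the sets came from these libraries no test applies. Wt1 reached 28.7 to 29.9 CPM in set A and 29.0 to 38.9 CPM elsewhere. Library totals did not separate the set, at 10316202 to 17526325 counts against 10130088 to 15953837 in the others. Several other cell-type lists differed with it, and their part in the marker values was not tested. The summed CPM of 12 cardiomyocyte markers was 43232 to 46874 in set A and 34570 to 41028 elsewhere, and that of 8 erythroid markers was 7240.2 to 10617 in set A and 13519 to 89109 elsewhere. The 10 endothelial and endocardial markers summed to 853.3 to 953.8 CPM in set A and 820.1 to 974.9 CPM elsewhere. The other epicardial and mesothelial genes summed higher in set A, at 569.6 to 686.5 CPM against 427.9 to 505.6 CPM elsewhere. This came from Cav1 alone, at 258.8 to 391.8 CPM in set A and 72.8 to 109.8 CPM elsewhere. Without Cav1 the sum of the list lay lower in set A than in each of the other 8 libraries. The lung and foregut genes, nearly all of it Sox9, lay lower, at 45.8 to 56.5 CPM in set A and 68.9 to 139.7 CPM elsewhere. The ranges of the ligand, mesenchymal, liver and surface epithelium sums overlapped between set A and the rest. Most of the ligand sum was Igf2, at 1206 to 1629 CPM over all libraries. Most of the surface epithelium sum was Dsp, at 335.6 to 442.0 CPM.

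Set by set, Msln in set B was at 11.7 and 14.5 CPM with Wnt gain of function and at 20.2 and 23.9 CPM in control, and in set C it was at 11.03 and 12.5 CPM with Wnt gain of function and at 13.1 and 16.6 CPM in control. The groups did not overlap in these 2 sets, but in set A they did, where control library 2 lay below both Wnt gain-of-function libraries. With 2 libraries against 2 such a separation is easily reached, and the share of all tested genes that showed it was not counted. The lowest Msln value, 11.03 CPM, was that of Wnt gain-of-function library 5, also the lowest of its group for Axin2. With the sets as a block, the log2 fold change of Msln was -0.42 ± 0.11, unadjusted p = 0.00133 in edgeR, and the edgeR adjusted p of 0.0559 missed the threshold. With that block edgeR called 1.32% of genes higher and 0.677% lower, and its p-values can be too small because the sets were found in the same libraries. The other 7 markers had adjusted p-values from 0.482 to 0.991 in the same fit, and the interval of Wt1 narrowed to -0.19 to 0.12.

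Other genes of the epicardium and of mesothelium gave a like picture, with 1 exception. Of 25 such genes 24 were in the count table and 19 were tested, of which edgeR called 1 higher and 0 lower, and their median log2 fold change was -0.011, with 8 above 0 and 11 below. Aldh1a2, the enzyme by which the epicardium makes retinoic acid, was at 22.3 ± 3.28 CPM with Wnt gain of function and 23.6 ± 5.08 CPM in control (SD, n = 6). The T-box factor Tbx18 was at 73.8 ± 15.5 CPM with Wnt gain of function and 82.1 ± 13.1 CPM in control. Rarres2, which encodes the secreted protein chemerin, and Sema3d, a secreted semaphorin, were the genes with the lowest p among those not called, at log2 fold changes of -0.28 and 0.15. Podoplanin, Pdpn, had 0 counts in all libraries under either of its 2 gene IDs, so its counts cannot be read as a level.

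Sbspon, which encodes a secreted protein with somatomedin B and thrombospondin domains, rose. Its lowest, median and highest library was at 0.666, 2.79 and 3.06 CPM with Wnt gain of function and at 0.101, 0.375 and 0.953 CPM in control, so it was low in both groups. Library 5 alone of the Wnt gain-of-function group lay within the control range, and it was also the lowest of its group for Axin2. The log2 fold change was 2.41 ± 0.42 (edgeR adjusted p = 0.0145), with 9 to 48 counts per library with Wnt gain of function and 1 to 12 in control. The call was lost in limma-voom (adjusted p = 0.0669), with the closest library pairs summed (0.208 in edgeR) and without set A (0.269 in edgeR), with log2 fold changes of 2.17 to 2.45. Between libraries the r of Sbspon with the markers was 0.18, which at such low counts says little about whether they move together.

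Several of these genes moved with the markers from library to library. Every r in this paragraph takes in set A, which lay below the other libraries for Upk3b, Upk1b and Lrrn4. None is given without that set. The r with the mean standardised deviation of the 8 markers was above 0.5 for 11 of 19, against 17.7% of all tested genes, and below -0.5 for 2, against 17.6%. Other lists held like shares: 4 of 7 erythroid markers (median r 0.60, beside 0.58 for the 19 epicardial genes) and 7 of 10 ligands were above 0.5, and 6 of 12 cardiomyocyte markers were below -0.5. Aldh1a1, another retinaldehyde dehydrogenase, was closest (r = 0.91), followed by the keratins Krt18 (0.86), Krt7 (0.84) and Krt8 (0.82) and by Aldh1a2 (0.78). Cav1, a protein of caveolae in many cell types, and Sema3d ran the other way (-0.83 and -0.67). The 8 other genes with a named symbol and a mean of at least 1 CPM that were most like the markers over the 12 libraries were Fn1, Wdr5, Kcnq3, Chst12, Rpl26, Gopc, Rcn3 and Phc1, with r from 0.92 to 0.95. Fn1, which encodes fibronectin, was at 795 ± 90.8 CPM with Wnt gain of function and 677.7 ± 138.8 CPM in control, and edgeR called 0 of the 8 between groups. Rpl26 may share reads with near-identical copies and is uncertain.

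Signals that the epicardium can send to the myocardium, and mesenchyme that it can give rise to, had no edgeR calls. Bulk counts do not show which cells made these transcripts. Of 10 ligand genes 5 had an unadjusted p under 0.05, in both directions, against 6.3% of all tested genes. Slit2, a secreted guidance ligand, was at 164.2, 181.6 and 215.5 CPM with Wnt gain of function and at 131.6, 139.0 and 161.9 CPM in control. Its groups did not overlap, as held for 0.46% of tested genes, and differed by 0.39 on the log2 scale (adjusted p = 0.0569 in edgeR). The chemokine gene Cxcl12 was at -0.47 (edgeR adjusted p = 0.282, and 0.00657 without Wnt gain-of-function library 5) and Fgf9 at 0.30. DESeq2 called 1 of the 10, Slit2 (adjusted p = 0.00527). Of 19 mesenchymal genes 1 had an unadjusted p under 0.05, Col1a2 at -0.32, and Zeb2 and Col1a1 were at 0.16 and -0.52, with DESeq2 calling 0. The list median was -0.077 for the ligands and -0.069 for the mesenchyme.

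Markers of the labelled tissue were abundant. Cardiomyocyte markers summed to 34570 to 43929 CPM with Wnt gain of function and to 36605 to 46874 CPM in control, and 0 of 12 were called by edgeR, with Myh6, Ryr2 and Myh7 at log2 fold changes of 0.26, -0.12 and -0.17. Keratins and mesothelial genes can also come from other tissues taken with the heart, so their defining genes were read. Of 10 lung and foregut epithelium genes 9 stayed under 1 CPM in each library, Nkx2-1 at no more than 1 count, and Sox9, which the heart also expresses, was at 44.7 to 113.2 CPM with Wnt gain of function and 49.95 to 137.7 CPM in control. Of 10 surface epithelium genes 5 stayed under 1 CPM in each library, among them Krt5 and Krt15, and Grhl3, Krt14 and Perp were at -0.74, -0.46 and -0.092. Liver genes summed to 6.76 to 37.1 CPM with Wnt gain of function and 5.75 to 17.3 CPM in control, with Afp at 1.36, Apoa2 at 0.65 and Ahsg at 0.52. Among erythroid genes Hba-a2, Hba-a1 and Hbb-bh1 were at -0.25, -0.12 and 0.17, and among endothelial genes Npr3, Tek and Emcn at 0.44, 0.16 and 0.18. EdgeR called 0 genes of these 4 lists outside the myocardium and 0 of the endothelial list, and DESeq2 likewise 0 in each, although Npr3 was called by edgeR once library set was blocked (0.42, adjusted p = 0.0257). Of these lists, 0 of 1, 1 of 4, 0 of 5, 0 of 7 and 1 of 10 tested members, in the order lung and foregut, surface epithelium, liver, erythroid and endothelial, had an unadjusted p under 0.05. The cardiomyocyte list had 1 of 12 at that unadjusted p, beside 6.3% of all tested genes, and 0 by DESeq2. Their part in the marker values was not tested.

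**Figure D5:**
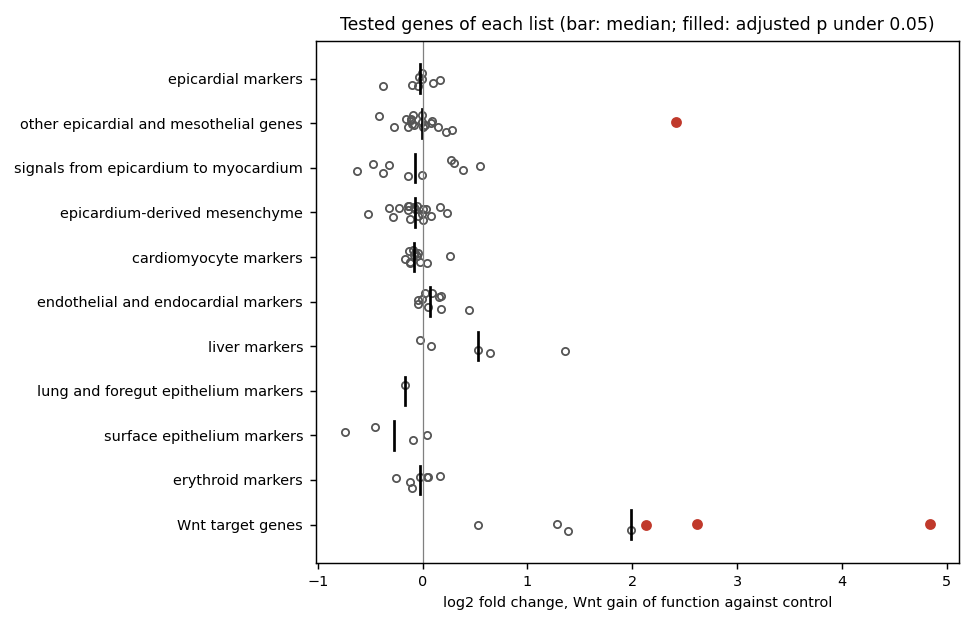
Log2 fold change of Wnt gain of function against control (horizontal axis) for each tested gene of the epicardial markers and of 10 further lists, with a bar at the list median. The epicardial markers lie between -0.38 and 0.17, while the Wnt target genes lie between 0.52 and 4.84.

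In the same libraries the Wnt target genes differed between groups, though Wnt gain-of-function library 5 lay within the control range of their summed CPM. Of 7 tested targets edgeR called 3 higher, Notum, Axin2 and Rnf43, and 0 lower, and all 7 had an unadjusted p under 0.05, beside 0 of the 8 epicardial markers. Their median log2 fold change was 1.99, with Notum, which encodes an enzyme that inactivates Wnt ligands, at 4.84 ± 0.65 and Axin2 at 2.62 ± 0.40. DESeq2 called 6 of the 7, limma-voom 0, and edgeR 0 without set A, 0 with the closest pairs summed and 6 without Wnt gain-of-function library 5. With the replicate numbers as a block the call of Axin2 was lost (adjusted p = 0.125 in edgeR).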

How the data were processed

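The authors deposited 1 raw count for each Ensembl gene in each library, per the file headers. The submitters' processing notes name Subread, featureCounts and edgeR. Nothing read here states the build, annotation, versions or strand setting. The deposited GC percent column and a table of the authors' own comparison were not used. Of 41422 rows, 40800 gene IDs were kept, as repeated rows of an ID carry the same counts.

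Counts were fitted in R 4.3.3 with edgeR 4.0.16 (filterByExpr with a minimum count of 10, TMM scaling, robust quasi-likelihood test, group as the only term), Benjamini-Hochberg adjusted over all 14774 tested genes. SEs come from the F statistic. DESeq2 1.42.0, limma 3.58.1 (voom) and other settings were alternatives. The tests were checked on simulated counts. Deviations are log2 CPM with a prior count of 2, minus the group mean. Exon lengths are from GENCODE M21, promoters from RefSeq.

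Of 66 library pairs none agreed within sampling noise (lowest mean chi-square per gene 3.07). The 9 markers and 10 further lists, and the library sets, were chosen with earlier results of these data known. Named genes were the markers, the called and the 3 lowest-p genes of each list, the 8 most like the markers among genes of at least 1 CPM, and Axin2, Notum and Ctnnb1. Others were named after their values were seen. 1 gene of the erythroid list is not reported here and was left out of that list.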

Additional observations from a re-analysis of the deposited data

Results flagged for a closer look

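In 3 of 92 sets of 6 libraries (46 named genes in each group), 1 library stood apart from the rest of its group by Dixon's criterion, where chance flags about 1 in 20. None of them concerned an epicardial marker. Cxcl12 was at 196.6 CPM in Wnt gain-of-function library 5, with the next at 133.3 CPM, a gap of 0.679 of the group's range. Hbb-bh1, an embryonic beta-like globin gene, was at 1709 CPM in the same library, with the next at 361.1 CPM, a gap of 0.814 of the range. Phc1, a Polycomb gene named for its likeness to the markers, was at 31.1 CPM in Wnt gain-of-function library 6, with the next at 24.9 CPM, a gap of 0.757 of the range.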

How the results depend on the processing

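No marker was called under any of 22 alternatives, whose adjusted p-values ran from 0.0559 (Msln under a block for library set) to 1.00. Msln stayed below 0 (-0.56 to -0.18 on the log2 scale) and Krt19 above 0 (0.051 to 0.24) throughout. Values near 0 changed sign: Upk3b was 0.012 with the replicate block, 0.0010 with library size alone, 0.012 in limma-voom, 0.0098 under a block for library set and 0.0015 with the closest pairs summed. Lrrn4 was 0.00080 with the replicate block and 0.00072 with library size alone. Replicate numbers did not pair the libraries: the 6 same-numbered pairs correlated from -0.38 to 0.46. Among libraries of the other group only, 3 of 12 libraries correlated best with the one of their own number. The replicate block gave 0 calls among the markers and lost 1 call among the lists, Axin2.

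With 1 library left out in turn, the log2 fold change ran from -0.10 to 0.00030 for Wt1, 0.033 to 0.15 for Tcf21, -0.11 to 0.066 for Upk3b, -0.12 to 0.045 for Upk1b, -0.073 to 0.052 for Lrrn4 and -0.19 to 0.072 for Bnc1. The same range was -0.16 to 0.018 for Perp, -0.52 to 0.18 for Hba-a2, -0.91 to 0.41 for Hbb-bh1, -0.58 to 0.26 for Hba-a1, -0.0042 to 0.068 for Wdr5, -0.16 to 0.0057 for Rcn3 and -0.026 to 0.090 for Phc1. Without set A, chosen after seeing the data, Tcf21 was -0.075, Ryr2 0.043, Myh7 0.063, Perp 0.077, Wdr5 -0.026 and Phc1 -0.056. Hba-a2 was 0.16 with the replicate block, 0.63 in limma-voom and 0.10 under a block for library set, where Hba-a1 was 0.035.

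Over all tested genes, edgeR's 64 higher and 10 lower calls became 170 and 25 in DESeq2, 3 and 3 in limma-voom, 195 and 100 when the library sets were blocked, 0 and 1 with the closest pairs summed, and 0 and 2 without set A, where 8 libraries remain. They were 97 higher without a count filter, 34 to 149 higher and 4 to 28 lower with 1 library left out. Without Wnt gain-of-function library 1, 2 or 4 there were 35, 34 and 37 higher and 5 lower each, without its library 5 there were 149 and 28, and without its library 3 or control library 3 there were 4 and 6 lower. The 1 call among other epicardial genes became 0 in limma-voom, with pairs summed, without set A, and under a filter of 1 CPM in 6 libraries, which leaves Sbspon untested, and 2 under a block for library set, which added Cav1 (-0.34). It stayed 1 to 1 with 1 library left out. The 0 calls among ligands became 1 in DESeq2, without a count filter and when the library sets were blocked, and 0 to 2 with 1 library left out, and those in mesenchyme and in the endothelial list became 1 each under a block for library set, Col1a2 and Npr3, while the 3 Wnt target calls became 4 with Znrf3. That block also called Chst12 (0.40), 1 of the 8 genes most like the markers. The cause of these shifts was not tested. Among the markers Dmkn alone did not pass the low-count filter, and how far depth limits the others was not tested.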

Other observations

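The genes that followed Msln most closely between libraries, by the criterion used for the markers as a whole and looked up after the values of Msln were seen, differed from those that followed the other markers. Rem1, a small GTPase gene (r = 0.98), F13a1, which encodes a coagulation factor subunit of macrophages (0.96), Sdpr, a caveolar protein gene (0.94), and Aldoc, a glycolytic aldolase (0.94), led over the 12 libraries, and edgeR called none of these 4 between groups. Itga4, an integrin subunit that holds the epicardium to the heart, ran most strongly against Msln among the other epicardial genes (r = -0.89), while Cav1 (0.83) and Gpm6a (0.80) ran with it. Cav1 was at 277.5 and 258.8 CPM in the Wnt gain-of-function libraries and at 391.8 and 378.6 CPM in the control libraries of set A, against at most 94.1 CPM with Wnt gain of function and 109.8 CPM in control elsewhere.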
